A study of Mus musculus with 5 samples.

Results

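Retinoic acid signalling and metabolism genes were followed in hair follicle stem cells sorted from the back skin of mice, comparing mice in which deletion of Polycomb repressive complex 1 (PRC1), a histone H2A ubiquitin ligase, was induced with mice in which it was not. The 10 genes were listed by function: the retinoic acid receptors Rara, Rarb and Rarg, the retinal dehydrogenases Aldh1a1, Aldh1a2 and Aldh1a3, the degrading enzymes Cyp26a1 and Cyp26b1, and the binding proteins Crabp1 and Crabp2. The deposited table held 9 of them among 30840 features, and Cyp26a1 was not analysed here. Every mouse was Ring1a-/- with Ring1b flox/flox alleles and received 1% RU-486 daily for 10 days, beginning at postnatal day 50. Mice of the PRC1 i2KO group (3 libraries) had in addition the K15-CrePR1 transgene, in which the keratin 15 promoter drives a Cre recombinase that becomes active under RU-486. Mice of the Control group (2 libraries) lacked it, so the transgene and the Ring1b deletion it induces cannot be told apart, and neither group had intact Ring1a. At postnatal day 70, epithelial (EpCAM+) bulge cells were gated as CD34+, Sca1- and high in α6-integrin, and each library was made from 50000 of them.

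Cells make retinoic acid from retinol (vitamin A) in successive oxidation steps, of which the ALDH1A enzymes carry out the irreversible last one. The product is carried by CRABP proteins, binds RAR receptors paired with RXR receptors on DNA, and is removed by CYP26 enzymes. In skin, retinoids are known for their influence on keratinocyte differentiation, sebaceous glands and the hair cycle, and RARγ is known as the main RAR of mouse epidermis.

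The RARs bind direct repeats of a hexamer, and a repeat spaced by 5 bases (DR5) is the textbook retinoic acid response element. It is shown because Rarb and Cyp26a1 are known targets that carry one near their start, so that their RNA is often read as a sign of retinoic acid activity. Promoter windows of 300 bases (250 before to 50 after the gene start, RefSeq sequences on GRCm38.p6) were found for 8 of the 10 genes, those other than Aldh1a3 and Crabp2. Both DNA strands were searched. The DR5 element was present in 0.0974% of all 32851 windows and, among these genes, in those of Rarb and Cyp26a1, starting 53 bases before the Rarb start. The Rarb window is chr14:16575427-16575726 on the minus strand and the Cyp26a1 window chr19:37697558-37697857 on the plus strand, where the element lies on the strand opposite to the gene. The 2 elements are printed 5′ to 3′ along the element, with the repeated hexamers in capitals.
Rarb DR5 element: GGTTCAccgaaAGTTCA
Cyp26a1 DR5 element: AGTTCAcccaaAGTTCA
The repeat spaced by 2 bases (DR2, in 0.268% of all windows) was in none of the windows of these 8 genes, and a single AGGTCA (in 16.3% of all windows) was in 1 window each of Rara and Rarg. A match is a description of these letters and not a measured binding site.

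The windows of Aldh1a2 and Cyp26b1, a synthesis and a degradation gene whose levels below differed in opposite directions, are shown for their CG dinucleotides, which are dense in many promoters known to attract Polycomb complexes. The pair was chosen after its values were seen. No Polycomb binding was measured here, and a link between CG content and expression was not tested. Capitals mark each CG. The Aldh1a2 window (GRCm38.p6, chr9:71215539-71215838, plus strand) held 50 CG and 99.1% of all windows held fewer. The Cyp26b1 window (chr6:84593761-84594060, minus strand) held 9, with fewer in 54.2% of all windows, and the median window held 7.
Aldh1a2 window: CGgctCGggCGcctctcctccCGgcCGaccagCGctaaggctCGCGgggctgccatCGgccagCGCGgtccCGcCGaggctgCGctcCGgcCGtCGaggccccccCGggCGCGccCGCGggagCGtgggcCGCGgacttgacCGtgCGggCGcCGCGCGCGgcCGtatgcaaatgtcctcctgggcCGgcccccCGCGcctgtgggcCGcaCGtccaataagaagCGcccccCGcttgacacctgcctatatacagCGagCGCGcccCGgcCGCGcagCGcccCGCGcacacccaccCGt
Cyp26b1 window: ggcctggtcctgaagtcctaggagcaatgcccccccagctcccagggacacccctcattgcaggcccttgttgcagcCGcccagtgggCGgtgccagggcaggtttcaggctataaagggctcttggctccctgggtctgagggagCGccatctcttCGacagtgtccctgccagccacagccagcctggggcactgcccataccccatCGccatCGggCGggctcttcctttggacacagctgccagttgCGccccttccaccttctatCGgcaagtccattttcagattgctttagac
The other windows held 1 or 3 CG in Aldh1a1, 5 to 21 in Rara, 10 or 12 in Rarg, 17 in Rarb, 17 in Crabp1 and 26 in Cyp26a1. Aldh1a1 was also higher in PRC1 i2KO at an unadjusted edgeR p under 0.05, and Crabp2, higher as well, had no window.

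Library totals lay between 11626006 counts in Control 3 and 43307694 counts in PRC1 i2KO 2, so that 1 count stood for 0.0203 to 0.0793 CPM (counts scaled to library size, on library sizes scaled by the TMM method). The counts of the targeted genes pool deleted and retained exons. Ring1b (gene Rnf2) was at 39.9, 33.1 and 36.4 CPM in PRC1 i2KO 1, 2 and 3, against 27.7 and 37.5 CPM in Control 2 and 3 (edgeR adjusted p = 0.870). Per transcript length it was lower in every PRC1 i2KO library, at 16.8, 12.9 and 11.7 TPM, than in Control, at 25.1 and 24.4 TPM. On log2(TPM + 1) the median of all tested genes was also lower in PRC1 i2KO, with a log2 fold change of -0.19. Ring1a (gene Ring1) had 50, 70 and 116 counts in PRC1 i2KO, against 92 and 63 counts in Control (edgeR adjusted p = 0.884). All 12 listed markers of bulge and basal cells were detected in every library, among them Krt15 at 3418 to 5076 CPM in PRC1 i2KO and 4270 to 4358 CPM in Control. The labels do not state that each library is a different animal, so the p-values describe variation among these libraries only, which may be technical.

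Between the groups, the degrading enzyme gene Cyp26b1 lay lower in each PRC1 i2KO library than in either control, and the synthesis gene Aldh1a2 and the binding protein gene Crabp2 were higher in each. Rarg and Rara, the receptor genes expressed above trace level, overlapped between groups. By edgeR's quasi-likelihood test with Benjamini-Hochberg adjustment over 22181 genes, 0 of the 9 genes passed an adjusted p of 0.05 in either direction. Over all tested genes, 0.126% passed as higher and 0.0% as lower. At an unadjusted p under 0.05, Aldh1a1, Aldh1a2 and Crabp2 were higher and Cyp26b1 was lower, against 7.43% of all tested genes higher and 3.51% lower. Limma-voom called none of the 9, and DESeq2 called Aldh1a2 and Crabp2 higher and none lower, against 3.57% higher and 0.786% lower of the 21132 genes it gave an adjusted p. The groups did not overlap in 3 of the 9 genes, 2 higher and 1 lower, against 14.6% and 15.3% of all tested genes. All 9 passed the filter on low counts, but Aldh1a1, Aldh1a2 and Rarb did so through their PRC1 i2KO libraries.

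**Figure D1:**
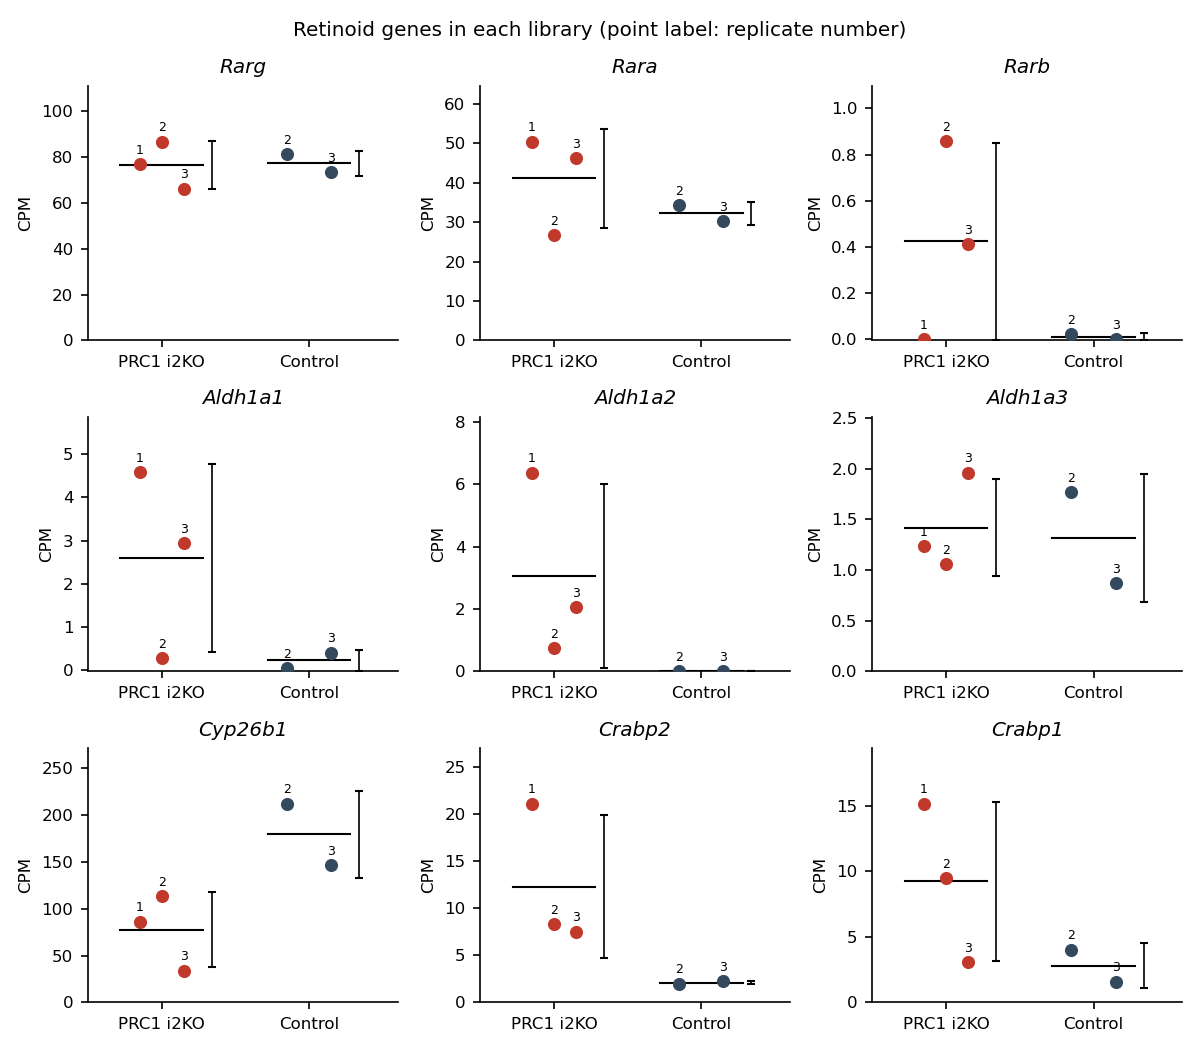
CPM of the 9 measured retinoid genes in each library, with PRC1 i2KO left of Control; points are libraries labelled by replicate number, horizontal lines are group means and the bars beside them ± SD (n = 3 and 2). The PRC1 i2KO points lie above both controls for Aldh1a2 and Crabp2 and below both for Cyp26b1, where they run from 33.9 to 113 CPM.

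Among the receptors, Rarg (ENSMUSG00000001288.15) was at 76.8, 86.7 and 66.1 CPM in PRC1 i2KO 1, 2 and 3, against 81.1 and 73.5 CPM in Control 2 and 3. The groups overlapped, and the log2 fold change was -0.01 ± 0.20 (SE; edgeR adjusted p = 0.988). Its TPM value (scaled for transcript length) spread more widely, at 31.0, 77.2 and 51.3 TPM in PRC1 i2KO and 70.5 and 44.8 TPM in Control. The transcript length implied by count over TPM, taken relative to that of the controls, came to 1.26, 0.740 and 0.720 in PRC1 i2KO 1, 2 and 3 and 0.981 and 1.02 in Control 2 and 3. Across 8936 well-covered genes the central 80% of these ratios ran from 0.794 to 1.23 in PRC1 i2KO 1, from 0.820 to 1.21 in PRC1 i2KO 2 and from 0.823 to 1.19 in PRC1 i2KO 3. Rarg thus lay outside that range in each PRC1 i2KO library, longer in 1 and shorter in the other two. The implied lengths of the groups overlapped, with the PRC1 i2KO libraries on both sides of the controls.

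Rara (ENSMUSG00000037992.16), the more widely expressed receptor, was at 50.4, 26.7 and 46.2 CPM in PRC1 i2KO 1, 2 and 3, against 34.3 and 30.2 CPM in Control 2 and 3. The PRC1 i2KO libraries lay on both sides of the controls (log2 fold change 0.35 ± 0.31, SE; edgeR adjusted p = 0.745). On the TPM scale the groups were level, with 11.1 ± 2.21 TPM in PRC1 i2KO (SD, n = 3) and 11.4 ± 3.36 TPM in Control (SD, n = 2).

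Rarb (ENSMUSG00000017491.9), the receptor gene that retinoic acid itself induces through the element shown above, had 0, 38 and 13 counts in PRC1 i2KO 1, 2 and 3, against 1 and 0 counts in Control 2 and 3. It was detected in 2 of the 3 PRC1 i2KO libraries and absent from the counts of PRC1 i2KO 1, where Aldh1a2, Crabp1 and Crabp2 were highest. The pooled ratio was 32.3 with a 95% counting interval of 5.54 to 1299, and the edgeR adjusted p was 0.487. In the reference annotation Rarb overlaps Top2b on the opposite strand, and the sources used here do not give whether reads were counted by strand. Aldh1a1 and Aldh1a2 also overlap opposite-strand genes, which were not analysed here, so the counts of these 3 genes are uncertain to that extent. Top2b was at 196, 199 and 218 CPM in PRC1 i2KO and 226 and 221 CPM in Control, and its part in the Rarb counts was not tested.

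Rarg accounted for most receptor RNA in every library. It took 70.9%, 89.4% and 80.6% of the summed RAR TPM in PRC1 i2KO 1, 2 and 3, against 83.6% and 83.3% in Control 2 and 3. Rarb took at most 0.589%.

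Of the synthesis genes, Aldh1a2 (ENSMUSG00000013584.5), the enzyme that makes most embryonic retinoic acid in the mouse, had 139, 33 and 65 counts in PRC1 i2KO 1, 2 and 3, against 0 and 0 counts in Control 2 and 3. This is 6.37, 0.744 and 2.06 CPM in PRC1 i2KO, each above the 0.0485 CPM that 3 counts over both controls would give. The pooled PRC1 i2KO level was at least 50.0-fold higher than that floor, a limit that became 26.6-fold without PRC1 i2KO 1, which holds 139 of the 237 counts, 78.7-fold without PRC1 i2KO 2 and 10.2-fold without Control 2. The difference missed edgeR's threshold (adjusted p = 0.157) and passed DESeq2's (adjusted p = 0.000219). The level was low even so, at 1.13 ± 1.00 TPM in PRC1 i2KO (SD, n = 3).

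Some markers of other cells moved with the groups in which Aldh1a2 was counted. Over all tested genes, 14.6% were higher in every PRC1 i2KO library than in either control and 15.3% lower. The marker counts below also include genes too low for the filter. Of the 12 listed fibroblast and dermal papilla markers, 6 were higher in every PRC1 i2KO library than in either control and 0 lower. The summed level of all 12 was 78.0 to 92.0 CPM in PRC1 i2KO and 33.1 to 35.1 CPM in Control. Of the 6, Enpp2 was too low for the filter, at 0.0917, 0.113 and 0.538 CPM in PRC1 i2KO. Pdgfra was at 32.5, 25.4 and 16.0 CPM in PRC1 i2KO, against 3.37 and 2.22 CPM in Control. Col3a1, a defining fibroblast collagen, had no count in PRC1 i2KO 1 and 3 and in both controls, and was at 0.271 CPM in PRC1 i2KO 2. The 7 measured immune markers summed to 25.4, 11.4 and 22.4 CPM in PRC1 i2KO 1, 2 and 3, against 7.37 and 12.8 CPM in Control 2 and 3. Of the 7, 1 was higher in every PRC1 i2KO library, near the share of all tested genes, and 0 lower. That marker was the Langerhans cell gene Cd207, at 2.75, 0.180 and 0.190 CPM in PRC1 i2KO, against 0 and 0.0793 CPM in Control, too low for the filter. The MHC class II gene H2-Ab1 was at 15.4, 2.89 and 7.21 CPM in PRC1 i2KO, the same order of libraries as Aldh1a2, against 0.0406 and 3.09 CPM in Control. Its groups overlapped, and Cd207 and the Merkel cell marker Krt8 had that order too. Among PRC1 i2KO libraries, Cd74 and Cd68 were instead highest in PRC1 i2KO 3, and Cd3e in PRC1 i2KO 2. The pan-leukocyte gene Ptprc was at 1.74 to 2.88 CPM in PRC1 i2KO and 2.86 to 4.26 CPM in Control. The dendritic cell gene Itgax was at 0.825 CPM in PRC1 i2KO 1 and had no count in any other library. Of the 5 measured Merkel cell markers, 3 (Krt8, Sox2 and Isl1) were higher in every PRC1 i2KO library and 0 lower, with sums of 4.90, 2.35 and 6.64 CPM in PRC1 i2KO and 0.0609 and 0.238 CPM in Control. Their defining keratin Krt20 was at 0.0677 CPM in PRC1 i2KO 2 and had no count elsewhere. Of the 10 mitosis genes, 5 were higher in every PRC1 i2KO library and 0 lower, with sums of 300.2, 69.0 and 652 CPM in PRC1 i2KO 1, 2 and 3, against 35.3 and 68.3 CPM in Control 2 and 3. The part of these cells and of dividing cells in the Aldh1a2 difference was not tested. In bulk libraries, a change in the number of cells that express a gene and a change in RNA per cell cannot be told apart.

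The 3 tested genes whose log2 CPM profile over the 5 libraries came closest to that of Aldh1a2 were H2-Eb1, Hoxc10 and Tmem26, with root mean square differences of 0.39, 0.41 and 0.43. Like Aldh1a2, each had no count in either control, which the matching itself favours. Each passed the filter through its PRC1 i2KO libraries. H2-Eb1, an MHC class II gene, was at 0.857 to 3.99 CPM in PRC1 i2KO, and the posterior patterning gene Hoxc10 was at 0.338 to 4.12 CPM. None of these 3 passed edgeR (adjusted p = 0.141, 0.206 and 0.200).

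Aldh1a1 (ENSMUSG00000053279.7), a retinal dehydrogenase of adult epithelia, had 100, 12 and 93 counts in PRC1 i2KO 1, 2 and 3, against 2 and 5 counts in Control 2 and 3. In CPM it was at 4.58, 0.271 and 2.94 in PRC1 i2KO and 0.0406 and 0.397 in Control, so PRC1 i2KO 2 lay between the controls while the other two lay well above them. The log2 fold change was 3.77 ± 1.51 (SE) and did not pass either tool (edgeR adjusted p = 0.414; DESeq2 adjusted p = 0.0891). Aldh1a3 (ENSMUSG00000015134.15), the third enzyme of the family, overlapped between groups at 1.24, 1.06 and 1.96 CPM in PRC1 i2KO and 1.77 and 0.873 CPM in Control (0.09 ± 0.83 in log2 fold change, edgeR adjusted p = 0.983).

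The makeup of the family therefore differed by library. Aldh1a2 took 47.1%, 27.5% and 19.3% of summed ALDH1A TPM in PRC1 i2KO 1, 2 and 3, against 0.0% in both controls. Aldh1a1 and Aldh1a2 together outweighed Aldh1a3 in PRC1 i2KO 1 and 3, where Aldh1a3 took 12.6% and 20.8%. In PRC1 i2KO 2 Aldh1a3 led with 61.3%. Aldh1a3 took 98.3% in Control 2 and 47.7% in Control 3, and the share in Control 3 rests on 11 counts of Aldh1a3 and 5 of Aldh1a1.

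**Figure D2:**
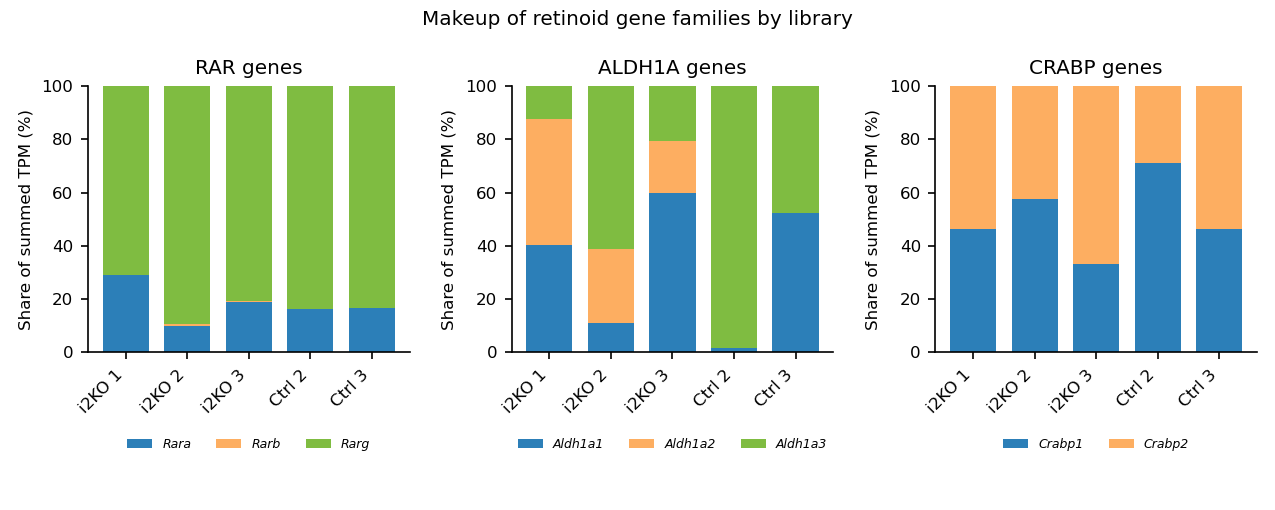
Share of the summed TPM of each family (percent, y axis) taken by each gene in each library (x axis; i2KO, PRC1 i2KO; Ctrl, Control). Rarg fills 70.9% or more of the RAR bars, and Aldh1a2 appears in the ALDH1A bars of the PRC1 i2KO libraries with none in the controls.

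Cyp26b1 (ENSMUSG00000063415.12), a cytochrome P450 that inactivates retinoic acid and is needed for normal hair follicle formation in the mouse, stood next to Rarg in TPM in the controls. In CPM it was at 86.1, 113 and 33.9 CPM in PRC1 i2KO 1, 2 and 3, against 212 and 146 CPM in Control 2 and 3. The highest PRC1 i2KO library lay below the lower control, and the lowest value was that of PRC1 i2KO 3. The group means were 77.7 ± 40.3 CPM in PRC1 i2KO (SD, n = 3) and 179 ± 46.5 CPM in Control (SD, n = 2), which is a log2 fold change of -1.21 ± 0.42 (SE), or -0.85 without PRC1 i2KO 3. This did not pass edgeR (adjusted p = 0.336) or DESeq2 (adjusted p = 0.103). Per transcript length the order was kept, with 15.4, 26.1 and 6.52 TPM in PRC1 i2KO and 60.7 and 31.1 TPM in Control, and the implied transcript length stayed between 0.962 and 0.983 of the control mean in PRC1 i2KO.

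The bulge markers Cd34, Lhx2, Lgr5 and Tcf7l2 were also lower throughout PRC1 i2KO than in either control. Of the other 8 of the 12 listed, Krt14 was higher throughout and the rest overlapped. Krt14 was at 1322, 1431 and 971 CPM in PRC1 i2KO 1, 2 and 3, against 695 and 832 CPM in Control 2 and 3. Of all tested genes, 15.3% were lower in this way and 14.6% higher. The part of these markers in the Cyp26b1 difference was not tested. Cd34, the marker used for sorting, was at 298, 292 and 164 CPM in PRC1 i2KO 1, 2 and 3, lowest in the library where Cyp26b1 was lowest, against 477 and 326 CPM in Control 2 and 3. Within PRC1 i2KO, Lhx2 was also lowest in that library, at 409 CPM. Lgr5 was instead highest there, at 382 CPM, and Tcf7l2 was lowest in PRC1 i2KO 2, at 227 CPM. The summed level of all 12 was 14499 to 18424 CPM in PRC1 i2KO and 16970.5 to 17204 CPM in Control, with no marker at 0.

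Set side by side, the summed TPM of the 3 ALDH1A genes was 4.79, 1.23 and 4.05 in PRC1 i2KO 1, 2 and 3, against 1.52 and 1.18 in Control 2 and 3. The ratio of Cyp26b1 TPM to this sum was 3.21, 21.2 and 1.61 in PRC1 i2KO, against 39.8 and 26.3 in Control. Every PRC1 i2KO library had a lower ratio than both controls, by a wide margin in PRC1 i2KO 1 and 3 and a small one in PRC1 i2KO 2. The ratio was chosen after its values were seen and was given no test.

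**Figure D3:**
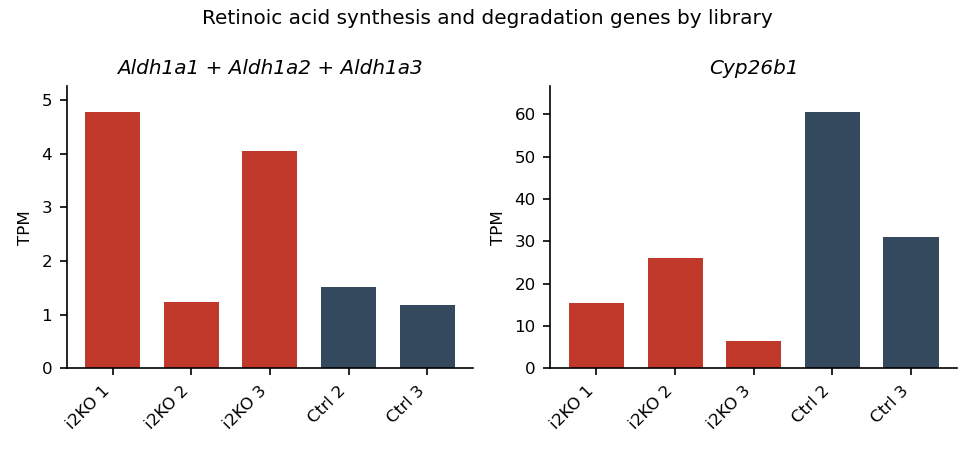
Summed TPM of the ALDH1A genes (left) and TPM of Cyp26b1 (right) in each library (x axis), PRC1 i2KO in red and Control in dark grey. ALDH1A bars reach 4.79 and 4.05 TPM in PRC1 i2KO 1 and 3, and the Cyp26b1 bars of all 3 PRC1 i2KO libraries, at most 26.1 TPM, are below those of both controls.

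Of the binding proteins, Crabp2 (ENSMUSG00000004885.5), which delivers retinoic acid to nuclear RARs, was at 21.1, 8.28 and 7.50 CPM in PRC1 i2KO 1, 2 and 3, against 1.99 and 2.22 CPM in Control 2 and 3. The lowest PRC1 i2KO library was above the higher control, and PRC1 i2KO 1 stood well above the other two. The means were 12.3 ± 7.63 CPM in PRC1 i2KO (SD, n = 3) and 2.11 ± 0.164 CPM in Control (SD, n = 2), which is a log2 fold change of 2.54 ± 0.61 (SE), or 1.91 without PRC1 i2KO 1. It missed edgeR's threshold (adjusted p = 0.189) and passed DESeq2's (adjusted p = 0.000804). In TPM the groups were also apart, at 20.3, 10.6 and 7.86 in PRC1 i2KO and 3.15 and 2.57 in Control.

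Crabp2 is also known from suprabasal and upper follicle keratinocytes. Of the 10 listed upper follicle and sebaceous gland markers, 5 were higher in every PRC1 i2KO library than in either control and 0 lower. Among all tested genes, 14.6% were higher in this way and 15.3% lower. The 10 markers summed to 1169, 686 and 797 CPM in PRC1 i2KO 1, 2 and 3, against 395 and 460 CPM in Control 2 and 3. One of the 5, Cst6, was at 116, 47.3 and 27.8 CPM in PRC1 i2KO, the same order of libraries as Crabp2, against 14.3 and 18.1 CPM in Control. The others higher throughout, Krt17, Scd1, Gata6 and Fasn, did not follow that order. Krt17, for example, was at 458, 301 and 368 CPM in PRC1 i2KO 1, 2 and 3. The sebaceous gland gene Cidea had no count in PRC1 i2KO 1 or Control 2, and no other marker of the list was at 0. The 9 interfollicular suprabasal markers summed to 838, 2666 and 1406 CPM in PRC1 i2KO, against 848 and 810 CPM in Control, and 3 of the 9 were higher in every PRC1 i2KO library and 0 lower. Of these, Ly6d was at 39.6, 46.1 and 22.8 CPM in PRC1 i2KO, against 11.2 and 12.5 CPM in Control, and Krtdap at 201, 563 and 273 CPM in PRC1 i2KO, against 119 and 136 CPM in Control. The part of these cells in the Crabp2 difference was not tested.

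The 3 genes with profiles closest to Crabp2 were Zfp820, 4930524J08Rik and St6galnac4, with root mean square differences of 0.20, 0.22 and 0.28 in log2 CPM over the 5 libraries. Zfp820 was at 6.60, 2.75 and 2.21 CPM in PRC1 i2KO and 0.650 and 0.476 CPM in Control. The sialyltransferase gene St6galnac4 was at 0.506 to 1.47 CPM in PRC1 i2KO and 0.0793 to 0.162 CPM in Control.

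Crabp1 (ENSMUSG00000032291.8), the cytoplasmic paralog, was at 15.2, 9.50 and 3.07 CPM in PRC1 i2KO 1, 2 and 3, against 4.02 and 1.59 CPM in Control 2 and 3. PRC1 i2KO 3 lay between the controls and the other two above them (log2 fold change 1.69 ± 0.75, SE; edgeR adjusted p = 0.459). It was 2.54 without Control 2 and 1.15 without PRC1 i2KO 1. Crabp2 took 53.7%, 42.4% and 67.0% of the summed CRABP TPM in PRC1 i2KO 1, 2 and 3, against 29.0% and 53.7% in Control 2 and 3, so the balance between the paralogs overlapped between groups. The sum itself was 37.8, 24.9 and 11.7 TPM in PRC1 i2KO, against 10.8 and 4.79 TPM in Control, with no overlap.

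**Figure D4:**
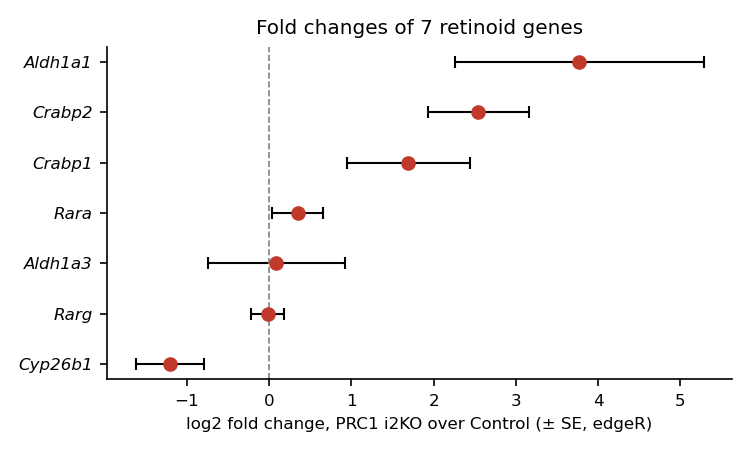
log2 fold change of PRC1 i2KO over Control (x axis, ± SE from edgeR) for the 7 retinoid genes with more than 3 control counts. Crabp2 (2.54 ± 0.61) and Cyp26b1 (-1.21 ± 0.42) stand farthest from 0 for their error, and none passed the adjusted threshold.

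Ordered by mean TPM, PRC1 i2KO cells had Rarg (53.1 ± 23.2) first, then Cyp26b1 (16.0 ± 9.78), Crabp2 (12.9 ± 6.55), Crabp1 (11.9 ± 7.15) and Rara (11.1 ± 2.21), then Aldh1a1 (1.50 ± 1.21), Aldh1a2 (1.13 ± 1.00), Aldh1a3 (0.733 ± 0.122) and Rarb (0.265 ± 0.255; SD, n = 3 each). The 4 genes from Cyp26b1 to Rara overlapped with their neighbours in that order, as did the 3 ALDH1A genes. In Control the order was Rarg (57.7 ± 18.1) and Cyp26b1 (45.9 ± 20.9), which overlapped, then Rara (11.4 ± 3.36), Crabp1 (4.95 ± 3.87), Crabp2 (2.86 ± 0.405), Aldh1a3 (1.03 ± 0.660), Aldh1a1 (0.322 ± 0.419), Rarb (0.0138 ± 0.0195) and Aldh1a2 (no count; SD, n = 2 each). Crabp1 and Crabp2 also overlapped in Control, as did each gene from Aldh1a3 on with the next in that order. Cyp26b1 stood above Rara and both CRABP genes in each control without overlap. It stood among them in PRC1 i2KO 1 and 3 and above each of them in PRC1 i2KO 2, at 26.1 TPM.

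The rest of the retinoid pathway was read from a list of 54 other genes, of which 50 were in the table and 46 were tested. By edgeR 0 passed in either direction, against 0.126% and 0.0% of all tested genes. At an unadjusted edgeR p under 0.05, 4 genes were higher, Dhrs4, Fabp5 and Meis2 among them, and Dgat1 was lower. Of all tested genes, 7.43% were higher and 3.51% lower at that p, so these counts are near the background. DESeq2 called 3 higher, Fabp5 and Meis2 among them, and none lower, against 3.57% higher and 0.786% lower of all genes with its adjusted p. Limma-voom called none. The groups did not overlap in 7 genes higher and 7 lower, against 14.6% and 15.3% of all tested genes, so 14 of 46 is near the background. The median log2 fold change was 0.20, and 0.01 over all tested genes.

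Genes known to be induced by retinoic acid were 10 of these, with 0 past the threshold and a median log2 fold change of 0.27. Meis2, a homeodomain partner of Hox proteins, was at 20.0, 18.4 and 23.4 CPM in PRC1 i2KO 1, 2 and 3, against 4.06 and 6.11 CPM in Control 2 and 3. Its PRC1 i2KO values lay close together and all above the controls (log2 fold change 2.03 ± 0.37, SE; edgeR adjusted p = 0.113). The nuclear receptor gene Nr2f2 was at 3.62, 1.69 and 1.61 CPM in PRC1 i2KO and 0.670 and 0.635 CPM in Control (1.81 ± 0.85, edgeR adjusted p = 0.487). The transglutaminase gene Tgm2 averaged 3.66 ± 1.67 CPM in PRC1 i2KO (SD, n = 3) and 1.00 ± 1.31 CPM in Control (SD, n = 2). Rai14 did not share this direction, at 132 to 141 CPM in PRC1 i2KO and 154 to 171 CPM in Control.

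Among the genes with the smallest p was one for an alternative route of the ligand. Fabp5, which can route retinoic acid to the receptor encoded by Ppard, was at 21.1, 15.6 and 30.6 CPM in PRC1 i2KO 1, 2 and 3, against 4.14 and 7.54 CPM in Control 2 and 3 (edgeR log2 fold change 1.96 ± 0.44, SE; adjusted p = 0.176). Ppard itself was at 29.9, 30.1 and 31.6 CPM in PRC1 i2KO, against 37.3 and 43.3 CPM in Control, lower in each PRC1 i2KO library (-0.40 ± 0.23, edgeR adjusted p = 0.578).

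For retinol storage, Dgat1, an acyltransferase that can esterify retinol, was at 5.32, 14.9 and 11.4 CPM in PRC1 i2KO 1, 2 and 3, against 22.5 and 20.2 CPM in Control 2 and 3 (edgeR log2 fold change -1.01 ± 0.43, SE; adjusted p = 0.443). The groups did not overlap. The lipoprotein receptor gene Lrp1 averaged 122 ± 7.33 CPM in PRC1 i2KO (SD, n = 3) and 144 ± 20.4 CPM in Control (SD, n = 2), and the lipase gene Lpl 7.06 ± 5.47 and 3.20 ± 2.09 CPM in the same groups. Stra6, a retinol uptake receptor induced by retinoic acid, was at 2.02 CPM in PRC1 i2KO 1 and at most 0.0793 CPM in every other library, too low for the filter.

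Among the 16 tested oxidoreductases of retinol and retinal, Dhrs4 was at 43.6, 13.2 and 15.1 CPM in PRC1 i2KO 1, 2 and 3, against 9.60 CPM in each control (log2 fold change 1.31 ± 0.53, SE; edgeR adjusted p = 0.420). Adh7, an alcohol dehydrogenase of epithelia active on retinol, was at 62.0, 50.3 and 39.7 CPM in PRC1 i2KO and 78.8 and 62.4 CPM in Control (-0.48 ± 0.25, edgeR adjusted p = 0.527). Those groups did not overlap, but PRC1 i2KO 1 was close to Control 3. Dhrs3, a retinal reductase that retinoic acid induces, averaged 38.8 ± 4.53 CPM in PRC1 i2KO (SD, n = 3) and 27.6 ± 9.04 CPM in Control (SD, n = 2), and PRC1 i2KO 1 overlapped with Control 3. Dhrs7 averaged 8.10 ± 4.69 CPM in PRC1 i2KO and 3.62 ± 1.63 CPM in Control.

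**Figure D5:**
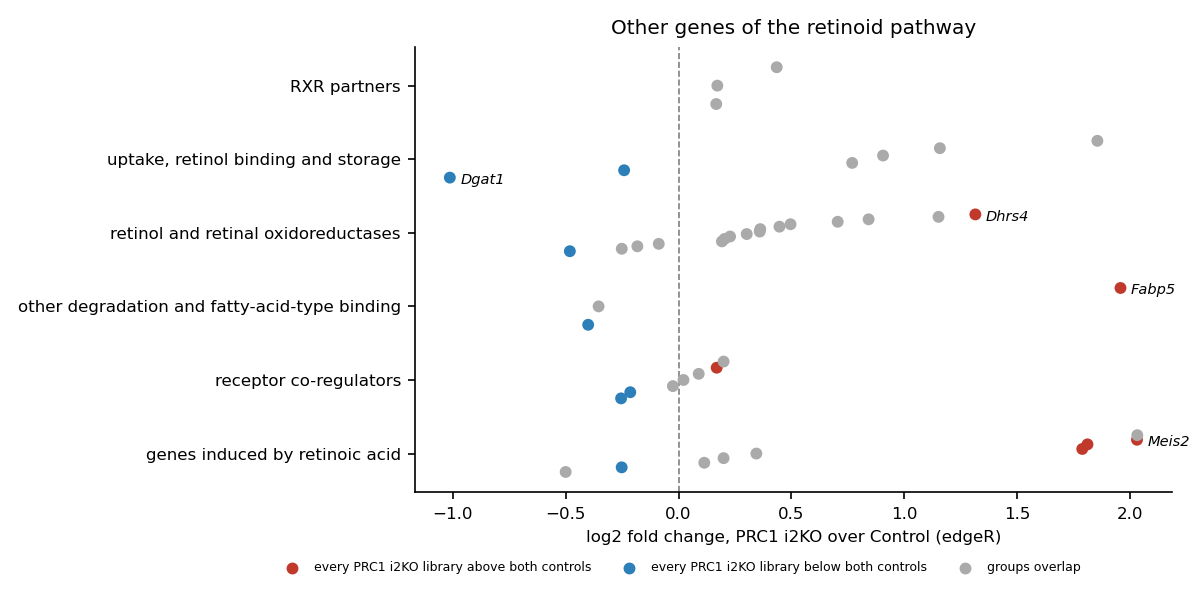
log2 fold change of PRC1 i2KO over Control (x axis, edgeR) for 44 of the 46 tested genes of the wider retinoid list in 6 groups (y axis); red, every PRC1 i2KO library above both controls; blue, every one below; grey, overlapping. The named genes had an unadjusted p under 0.05, and Meis2 and Fabp5 lie far to the right at 2.03 and 1.96.

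None of the receptors' partners and co-regulators passed the threshold. Rxra was at 218 ± 25.4 CPM in PRC1 i2KO (SD, n = 3) and 195 ± 9.77 CPM in Control (SD, n = 2), Rxrb at 11.1, 28.2 and 16.6 CPM in PRC1 i2KO 1, 2 and 3 and 12.9 and 14.8 CPM in Control 2 and 3, and Rxrg at under 1 CPM in every library. The 7 tested co-regulators had log2 fold changes between -0.25 and 0.20. Of these the corepressor gene Ncor1 was at 257 to 304 CPM in PRC1 i2KO and 238 to 251 CPM in Control, and the coactivator genes Ncoa1 and Ncoa3 lay lower throughout PRC1 i2KO than in either control (edgeR adjusted p = 0.772, 0.689 and 0.746).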

How the data were processed

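Polyadenylated RNA of 5 samples was sequenced (Illumina HiSeq, Universal Plus mRNA-Seq, per the labels' protocols). The deposited table gives an expected count and a TPM value per gene and library; the deposited expected counts are estimates, 60.2% of them not whole, and were rounded for tests. TPM, the other deposited value, was computed by the authors per transcript length and sums to between 999962.6 and 999977.5. Of tools, RSEM 1.3.3, STAR 2.7.9a and DESeq2 1.38.2 are listed, with build mm39, in the submitters' processing notes, which give no roles. RefSeq promoter windows are on GRCm38.p6, and GENCODE M21 was used only for names and overlaps.

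The main test was the quasi-likelihood F test of edgeR 4.0.16 (R 4.3.3) with genotype group as its sole term, after filterByExpr and TMM scaling; p-values were adjusted over 22181 genes (Benjamini-Hochberg) and called below 0.05. Standard errors are the log2 fold change over the square root of F. Alternatives used DESeq2 1.42.0 and limma 3.58.1. Fold changes are PRC1 i2KO over Control. Intervals (95%, exact) and the floor of 3 counts cover counting error only. The members and lists were chosen with earlier results of these data known. Named were all members and, of each group of the wider list, the 4 genes with the smallest p, except that some genes are not reported here, as well as the 3 profiles nearest to each of the 2 members with the smallest p. Genes named beyond that (Stra6, the markers and overlapping genes) and the windows printed for Aldh1a2 and Cyp26b1 were chosen after their values were seen. Samples were grouped by genotype and numbered as in their titles.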

Additional observations from a re-analysis of the deposited data

How the results depend on the processing

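Across 13 alternatives, Aldh1a1, Aldh1a2, Crabp1, Crabp2 and Cyp26b1 kept their direction, with log2 fold changes of 0.81 to 5.88, 0.99 to 10.3, 1.08 to 2.54, 1.75 to 2.80 and -1.65 to -0.84. Rarb kept its direction in the 11 alternatives that tested it. The number of members called higher was 2 with DESeq2 (wider list, 3). With edgeR and no filter on low counts it was 1 (Aldh1a2, adjusted p = 0.0394), and 1 in the wider list. Over all genes, DESeq2 called 754 higher and 166 lower of 21132, and edgeR with no filter called 140 and 12 of 30633. With the replicate block by titles, where PRC1 i2KO 1 has no partner, 1 member was called lower (Cyp26b1, log2 fold change -1.50, adjusted p = 0.0219) and 2 genes of the wider list higher (Fabp5 and Meis2), and over all genes 140 and 25 were called higher and lower, against 28 and 0 without the block. With the block by descriptions none of either list was called. Same-numbered libraries correlated by 0.065 and 0.041 (titles) and -0.024 and -0.065 (descriptions) in their deviations from the group means. With 2 controls, the deviations of Control 2 and Control 3 mirror each other. These correlations therefore cannot decide whether same-numbered libraries share more than a number. Leaving out any single PRC1 i2KO library, both lists had 0 calls in either direction. Over all genes, 8, 39 and 14 were called higher and 0, 4 and 0 lower without PRC1 i2KO 1, 2 and 3. Directions turned for Aldh1a3 (log2 fold change -0.10 with limma-voom, -0.19 and -0.32 on log2(TPM + 1) and log2(TPM + 0.1), -0.13 with the block by descriptions, and -0.31 to 0.70 with a library left out), for Rara (-0.020 on both TPM scales) and for Rarg (0.079 with the block by descriptions and -0.12 to 0.078 with a library left out); the cause was not tested. The median of all genes was -0.19 and -0.33 on those TPM scales, so Rara was not lower relative to it. The members' fold changes rest on 1 library in places: Crabp2 was 1.91 without PRC1 i2KO 1, and Aldh1a1 5.88 without Control 3. Control 3, with the fewest counts, limits Aldh1a1, Aldh1a3 and Rarb.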
